A study of Mus musculus with 4 samples.

Results

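The genes described here encode the enzymes and regulators of 3 connected routes of sugar use: glycolysis with lactate production (23 genes), the pentose phosphate pathway (7 genes) and glycogen storage and breakdown (7 genes). All 37 were chosen by gene symbol, and all 37 were among the 12634 genes that the authors tested, of 23284 genes in their gene table. Expression was measured by RNA sequencing of neutrophils sorted from mouse bone marrow as cells with much Gr1, much 7/4 antigen and high side scatter. Of the 4 samples, 2 came from mice labelled WT and 2 from mice labelled Srf KO, a knockout of the gene for serum response factor, a transcription factor best known for driving actin cytoskeleton genes; the series' title concerns neutrophil migration in inflammation. The labels give no strain, age, sex, treatment or deleting Cre line, and leave unsaid whether samples of 1 genotype are separate animals, so p-values may measure technical spread only.

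Glycolysis splits glucose into pyruvate and yields ATP without oxygen, and lactate dehydrogenase then turns pyruvate into lactate and restores the NAD+ that the route consumes. The pentose phosphate pathway takes glucose-6-phosphate from the same route: its oxidative branch makes NADPH, and its non-oxidative branch rearranges sugars and returns them to glycolysis. Glycogen is a branched glucose store from which phosphorylase releases glucose units. Neutrophils have few mitochondria and live largely on glycolysis and stored glycogen, and their NADPH feeds the oxidase that makes the respiratory burst.

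The authors' deposited table holds 1 pooled value per genotype for each gene, in FPKM (fragments scaled to transcript length and library size), so levels of different genes can be set side by side per length. Positive log2 folds mean higher in Srf KO, and each is followed by ± its standard error as derived from the authors' fold and test statistic. A gene is called, and said to have risen or fallen, where the authors' adjusted p was at most 0.05. Levels of single samples were not used here; the depth is therefore unknown, and so is the spread between samples. Fewer cells of a type and less RNA per cell cannot be told apart in such data.

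Start-site sequences are shown for 3 members whose start regions differed in content or in response. All were taken from RefSeq (GRCm38.p6), are 300 bases long, end 50 bases after a transcription start, and are written 5′ to 3′ on the gene's strand. Capitals mark 2 searched motifs: the CArG box, the sequence bound by SRF, and ACGTG, the core of the site bound by hypoxia-inducible factors, which was searched on both strands (so also as CACGT) and also lies inside the E-box CACGTG. Ldha was the only member whose window held a CArG box, the Hk1 pair are the windows RefSeq gives that gene, and the Hk3 window is that of its upstream start group, which fell as a group. The deposited tables give no start position per isoform, so starts come from the annotations: RefSeq's downstream Hk1 start lies 121 bases below the GENCODE start of the matching isoform, while the upstream Hk1 start and the Hk3 start are the same in both. The Ldha start is at position 46845804 in RefSeq and further downstream, at 46845839, in GENCODE.
Ldha, chr7:46845554-46845853, plus strand: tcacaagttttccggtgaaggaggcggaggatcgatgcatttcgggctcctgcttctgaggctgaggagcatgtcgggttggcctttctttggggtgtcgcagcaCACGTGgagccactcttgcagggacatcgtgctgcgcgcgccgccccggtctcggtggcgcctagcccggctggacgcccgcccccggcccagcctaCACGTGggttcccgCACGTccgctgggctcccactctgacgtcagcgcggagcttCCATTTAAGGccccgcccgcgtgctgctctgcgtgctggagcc
Hk1 upstream start, chr10:62379859-62380158, minus strand: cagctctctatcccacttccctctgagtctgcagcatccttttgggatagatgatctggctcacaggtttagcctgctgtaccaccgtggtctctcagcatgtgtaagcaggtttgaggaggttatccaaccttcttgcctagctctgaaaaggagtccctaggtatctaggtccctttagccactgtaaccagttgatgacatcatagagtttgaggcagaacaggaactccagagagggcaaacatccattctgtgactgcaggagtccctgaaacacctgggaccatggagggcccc
Hk1 downstream start, chr10:62340372-62340671, minus strand: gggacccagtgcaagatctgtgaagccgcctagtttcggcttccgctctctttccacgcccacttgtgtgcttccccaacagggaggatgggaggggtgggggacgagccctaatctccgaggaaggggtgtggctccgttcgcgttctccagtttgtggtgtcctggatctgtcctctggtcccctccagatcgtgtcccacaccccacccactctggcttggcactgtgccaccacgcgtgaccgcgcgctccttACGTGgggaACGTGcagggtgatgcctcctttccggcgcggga
Hk3, chr13:55021336-55021635, minus strand: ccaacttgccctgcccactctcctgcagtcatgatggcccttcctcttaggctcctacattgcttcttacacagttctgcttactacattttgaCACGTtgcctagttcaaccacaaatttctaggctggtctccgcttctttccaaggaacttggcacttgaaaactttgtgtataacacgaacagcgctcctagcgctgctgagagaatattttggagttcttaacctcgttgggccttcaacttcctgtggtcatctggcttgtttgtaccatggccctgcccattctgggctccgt

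In the Ldha window the CArG box CCATTTAAGG began 7 bases after the RefSeq start, and ACGTG sites lay 145, 48 and 34 bases before that start. Relative to the GENCODE start the CArG box lies before the start, not after it. The downstream Hk1 window held 2 ACGTG sites, 7 and 16 bases after its RefSeq start, and the upstream one held neither motif. The Hk3 window held 1 ACGTG site, 156 bases before the start. All 37 members matched a RefSeq gene and together had 56 windows. A CArG box was found for 1 of the 37, against 1.81% of 27025 genes (1.63% of 32851 windows). ACGTG was found for 19 (51.4%), against 21.8% of genes (19.6% of windows). A gene counts if any of its windows holds the motif, and members have more windows per gene than the 27025 genes do. The 51.4% is thus not to be set beside the share of windows. Those genes were also not limited to the ones tested here. ACGTG was present for 5 of the 10 members that fell, 0 of the 3 that rose and 14 of the 24 not called. A match of letters is a description of a window and no evidence of binding.

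Srf itself went from 13.7 FPKM in WT to 0.439 in Srf KO (log2 fold -4.97 ± 0.27) per the authors' deposited table. The same table called 35.5% of all tested genes, 17.8% lower and 17.7% higher, with a median log2 fold of 0.08. Xist stood at 0.0154 FPKM in WT and 4.92 in Srf KO per the authors' deposited table, and the Y-linked gene Ddx3y at 13.5 and 4.23, so the Srf KO value held RNA of both sexes. All 6 neutrophil markers that could be tested were present in both genotypes, and their summed level was 31008 FPKM in WT and 19990 in Srf KO, with 5 called lower. Ly6g was not matched in the table, and S100a8, S100a9, Ltf, Camp and Ngp were not tested because they had too many reads. Marker lists of other cells had higher summed levels in Srf KO: 22.4 to 55.6 FPKM for T and NK cells, 104 to 162 for B lineage, 7.16 to 50.2 for platelets, 258 to 358 for erythroid cells and 1292 to 1730 for monocytes and macrophages. The sums were 175 to 356 FPKM for eosinophils, basophils and mast cells, 386 to 634 for myeloid progenitors and 400 to 726 for proliferating cells. Of these lists' tested genes, 8 of 9, 4 of 8, 6 of 9, 8 of 13, 7 of 10, 7 of 8, 4 of 6 and 5 of 6, in that order, were called higher, 2 monocyte and macrophage markers were called lower, and 1 platelet marker, Gp6, was listed at 0 in WT. Some sums rest largely on 1 gene that was not called: Retnlg for neutrophils (24805 to 17117 FPKM) and Ly6c2 for monocytes and macrophages (1144 to 1544). Cd3d, also not called (13.5 to 15.0), was the largest single part of the T and NK sum. Globin rows, none of them called, made up most of the erythroid sum, with Hbb-b2 (128 to 158) the largest. Of the myeloid progenitor markers, Elane (129 to 196) and Prtn3 (66.6 to 102) were not called and share a locus with many other genes. Pf4, called higher (2.68 to 39.2), made up most of the platelet sum in Srf KO. The part of sex makeup and of these other cells in the results below was not tested.

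Across the 3 routes 10 members fell and 3 rose in Srf KO, and 24 were not called. The called share, 13 of 37 (35.1%), was that of all tested genes (35.5%), so the number of calls does not set the members apart. The calls divided as 27.0% lower and 8.11% higher, where all tested genes had 17.8% and 17.7%, and the members' median log2 fold was -0.23 against 0.08. Each route had called falls: 6 of 23 members in glycolysis, with the 3 rises, and 2 of 7 in each of the pentose phosphate and glycogen groups, which had no called rise. The lean to falls in glycolysis depends on the setting: 3 fell and 4 rose by the isoform with the highest FPKM, 3 fell and 3 rose without members at a shared locus, and 1 fell and 2 rose with a 2-fold minimum. Other settings made it larger: 9 fell and 3 rose with folds adjusted for transcript length, and 8 fell and 3 rose with folds centred on the median gene. These settings moved calls in the whole table too. Over all genes 2252 fell and 2234 rose in the main setting. With the length adjustment 2251 fell and 1793 rose, and with centring 2578 fell and 1817 rose. The larger lean is therefore not particular to glycolysis. In the authors' deposited table the summed level went from 4159 to 3053 FPKM for glycolysis (log2 -0.45), from 2272 to 1433 for pentose phosphate (-0.66) and from 812 to 547 for glycogen (-0.57). The sum over all tested genes had a log2 of -0.11. The glycolysis sum holds the gene row of Eno1, whose size is uncertain. The pentose phosphate sum rests largely on Taldo1 (926 to 460 FPKM) and Pgd (562 to 299), and the glycogen sum on Pygl (658 to 413). The median member had a log2 fold of -0.29 in glycolysis, -0.23 in pentose phosphate and -0.22 in glycogen, and whether they differ was not tested. Without X-linked members the pentose phosphate median was -0.06, and without members at a shared locus it was -0.40 and the glycogen median -0.09, so these small groups' medians rest on a few genes.

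**Figure D1:**
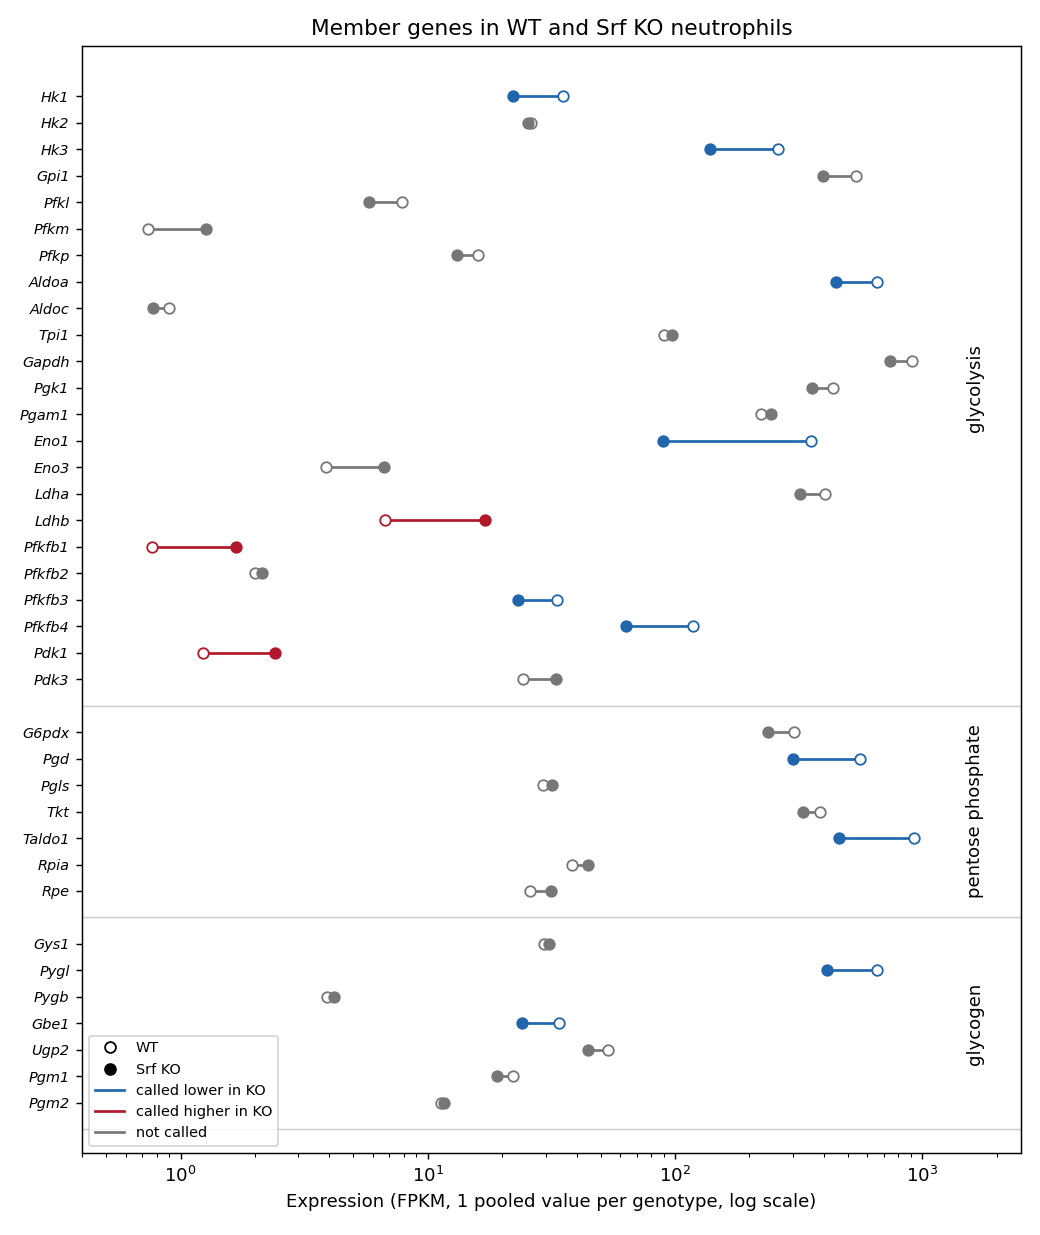
Pooled expression of each member in WT (open circles) and Srf KO (filled circles), in FPKM on a log axis, by route. Eno1, Aldoa, Taldo1, Pygl and Pgd, which fell, start at 355 FPKM or more in WT and lie to the right, and the 3 that rose (Ldhb, Pfkfb1, Pdk1) lie at 17.0 FPKM or less; Eno1 is uncertain because its reads were divided between near-identical models.

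Glucose is trapped in the cell by hexokinase, and the largest part of hexokinase RNA was Hk3, a form of myeloid cells. Hk3 (chr13:54949432-55021385, a locus that the table shares with Unc5a) fell from 262 FPKM in WT to 139 in Srf KO, a log2 fold of -0.92 ± 0.23 (adjusted p = 0.000575) per the authors' deposited table. Hk1, the hexokinase of most tissues (chr10:62268855-62379908, shared with 2210417K05Rik), fell from 35.3 to 22.1 FPKM (-0.67 ± 0.22, adjusted p = 0.00974) per the authors' deposited table. Hk2, the inducible form, was not called: it stood at 26.1 and 25.5 FPKM (-0.03 ± 0.18) per the authors' deposited table. Summed over the 3 enzymes, hexokinase RNA went from 324 to 187 FPKM, and Hk3 made up 81.0% of it in WT and 74.5% in Srf KO.

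The next steps isomerize the sugar phosphate and phosphorylate it again. Gpi1, which makes fructose-6-phosphate, stood at 541 FPKM in WT and 397 in Srf KO per the authors' deposited table (-0.45 ± 0.20, adjusted p = 0.0647) and was not called. Phosphofructokinase, the main control point of glycolysis, was represented by 3 genes at low levels in the authors' deposited table, none of them called: Pfkp (15.9 and 13.1 FPKM, -0.29 ± 0.21), Pfkl (7.90 and 5.77, -0.45 ± 0.21) and Pfkm (0.737 and 1.27, 0.78 ± 0.71). Pfkp took 64.9% of their summed FPKM in WT and 65.0% in Srf KO, so the makeup of this step was alike in both. The Pfkp locus also holds Pitrm1 and that of Pfkm holds Senp1, so their reads may be shared. Of the members described below, besides Eno1, the same applies to Tpi1 (with Spsb2), Pfkfb2 (Yod1) and G6pdx (Ikbkg). It applies as well to Tkt (Mir3076), Rpe (1110028C15Rik) and Ugp2 (Mir1933).

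Aldolase cuts the sugar into 2 triose phosphates, and Aldoa supplied 99.9% of aldolase FPKM in WT and 99.8% in Srf KO. Per the authors' deposited table Aldoa (chr7:126795234-126800447) fell from 659 to 449 FPKM, a log2 fold of -0.55 ± 0.23 with an adjusted p of 0.0467, just inside the threshold. The coding sequence that holds most of its FPKM stood at 638 and 443 in the authors' deposited coding-sequence table (-0.52 ± 0.40, adjusted p = 0.346) and was not called. Aldoc, the brain form, stood at 0.902 and 0.775 FPKM (-0.22 ± 0.34) per the authors' deposited table and was not called.

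The triose steps that follow had no call. Tpi1, which interconverts the triose phosphates, stood at 90.3 FPKM in WT and 97.0 in Srf KO (0.10 ± 0.19) per the authors' deposited table. Gapdh, the NAD+-dependent dehydrogenase often used as a reference gene, stood at 908 and 743 FPKM (-0.29 ± 0.19, adjusted p = 0.239), and the kinase gene Pgk1 at 437 and 359 (-0.29 ± 0.19, adjusted p = 0.232), per the authors' deposited table. Pgam1, the mutase that prepares the substrate of enolase, stood at 223 and 244 FPKM (0.13 ± 0.18) per the authors' deposited table. Adjusting the folds of the authors' deposited table for transcript length turned Tpi1 to -0.15 and Pgam1 to -0.06, and called Gapdh (-0.55, adjusted p = 0.0163), Pgk1 (-0.47, adjusted p = 0.0419) and Gpi1 (-0.51, adjusted p = 0.0374) lower, so whether these genes differed depends on that scaling. The annotation also holds 2 pseudogenes each named after Gapdh, Pgk1, Pgam1, Aldoa and Ldha, whose reads could be split with the parent gene. Copies under other names, such as Gm5506 for Eno1, were not counted, so members may have more copies than this.

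Enolase makes phosphoenolpyruvate, and its main gene carried the largest fall among the members by its gene row, a size that depends on how reads were divided. In the authors' deposited table Eno1 (chr4:150237197-150248873) went from 355 FPKM in WT to 89.2 in Srf KO, a log2 fold of -1.99 ± 0.35 (adjusted p = 2.28e-07). That row also names Gm5506, an intronless copy of Eno1 elsewhere in the genome with a near-identical sequence. In the authors' deposited isoform table the locus holds an Eno1 model, with the FPKM just given, and a Gm5506 model that went the other way. The latter went from 44.9 to 146 FPKM and has the status LOWDATA, so it was not tested. The Eno1 model made up 88.8% of the locus in WT and 37.9% in Srf KO. Both models together went from 400 to 235 FPKM, which is the value of the locus in the authors' deposited coding-sequence table: a log2 fold of -0.76 ± 0.21 (adjusted p = 0.00154), or 1.70-fold lower. Gm5506 at its own locus went from 243 to 141 FPKM (-0.79 ± 0.18, adjusted p = 0.000189) per the authors' deposited table. Eno1 was therefore lower by either row, by 3.98-fold or 1.70-fold, and the larger value is uncertain. Eno3, the muscle enolase, stood at 3.88 and 6.67 FPKM (0.78 ± 0.34, adjusted p = 0.0568 in the authors' deposited table) and was not called.

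Lactate dehydrogenase is built from A subunits, which favour lactate formation, and B subunits, which favour the reverse reaction. Ldha (chr7:46845804-46855627), whose window holds the CArG box printed above, stood at 406 FPKM in WT and 319 in Srf KO per the authors' deposited table (-0.35 ± 0.19, adjusted p = 0.136) and was not called, although the length adjustment called it lower (-0.60, adjusted p = 0.00735). Ldhb (chr6:142490249-142507943) rose from 6.71 to 17.0 FPKM per the authors' deposited table, 2.53-fold (1.34 ± 0.23, adjusted p = 2.31e-07), the largest rise among the members. The B form remained the minor one, at 1.62% of summed FPKM in WT and 5.05% in Srf KO.

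The PFKFB enzymes make and break fructose-2,6-bisphosphate, the strongest activator of phosphofructokinase, and their genes were called in both directions. Pfkfb4 (chr9:108991902-109032225), the form with the highest level here, fell from 118 to 63.2 FPKM (-0.90 ± 0.18, adjusted p = 9.93e-06) per the authors' deposited table. Pfkfb3 (chr2:11471431-11553929), a form with strong kinase activity that cytokines and low oxygen induce in many cells, fell from 33.5 to 23.2 FPKM per the authors' deposited table (-0.53 ± 0.19, adjusted p = 0.0220). Pfkfb1, the liver and muscle form (chrX:150589921-150643860), rose from 0.763 to 1.68 FPKM (1.14 ± 0.33, adjusted p = 0.00271) per the authors' deposited table. The heart form Pfkfb2 stood at 2.0 and 2.13 FPKM (0.09 ± 0.29) per the authors' deposited table and was not called. Since the 2 forms that fell held nearly all of the FPKM, the sum went from 154 to 90.2, a log2 difference of -0.78.

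Pyruvate dehydrogenase kinases keep pyruvate out of the mitochondrion by switching off the dehydrogenase complex. Pdk1 (chr2:71873272-71903858) rose from 1.23 to 2.42 FPKM per the authors' deposited table (0.98 ± 0.25, adjusted p = 0.000550). The X-linked Pdk3, the major form with 95.2% of the summed FPKM in WT, stood at 24.2 and 33.0 (0.45 ± 0.19, adjusted p = 0.0550 in the authors' deposited table) and was not called. Among the alternatives run, Pdk3 was called only where the p-values of the authors' deposited table were adjusted over genes at 5 FPKM or more in 1 genotype or both (adjusted p = 0.0477).

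In the oxidative branch of the pentose phosphate pathway the second NADPH-forming step fell. Pgd, 6-phosphogluconate dehydrogenase (chr4:149149985-149166707), went from 562 FPKM in WT to 299 in Srf KO per the authors' deposited table, a log2 fold of -0.91 ± 0.19 (adjusted p = 2.57e-05). G6pdx, the X-linked dehydrogenase that commits glucose-6-phosphate to the pathway, stood at 304 and 237 FPKM (-0.36 ± 0.20, adjusted p = 0.152 in the authors' deposited table) and was not called. Pgls, the lactonase between them, stood at 29.3 and 31.7 FPKM (0.12 ± 0.21) per the authors' deposited table and was not called. The level of Pgd was above that of G6pdx in both genotypes, by 562 against 304 FPKM in WT and 299 against 237 in Srf KO.

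The non-oxidative branch had 1 call. Taldo1, transaldolase (chr7:141392160-141402976), had the highest level of all members in WT and fell from 926 to 460 FPKM per the authors' deposited table, 2.01-fold (-1.01 ± 0.19, adjusted p = 1.73e-06). Tkt, transketolase, which shares this sugar exchange, stood at 386 and 329 FPKM (-0.23 ± 0.20, adjusted p = 0.372 in the authors' deposited table) and was not called. The pentose isomerase gene Rpia stood at 38.4 and 44.4 FPKM (0.21 ± 0.19) and the epimerase gene Rpe at 25.9 and 31.4 (0.28 ± 0.22) per the authors' deposited table, neither called. Taldo1 was above Tkt in WT and in Srf KO, but by less in Srf KO.

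Among glycogen genes the falls were in breakdown and in branching. Pygl (chr12:70190815-70227683), the liver-type phosphorylase that releases glucose-1-phosphate, fell from 658 to 413 FPKM (-0.67 ± 0.20, adjusted p = 0.00389) per the authors' deposited table and made up 99.4% of phosphorylase FPKM in WT and 99.0% in Srf KO. Gbe1 (chr16:70314087-70569716), the branching enzyme used in synthesis, fell from 33.8 to 24.1 FPKM (-0.49 ± 0.19, adjusted p = 0.0283) per the authors' deposited table. The brain-type phosphorylase gene Pygb stood at 3.92 and 4.18 FPKM (0.09 ± 0.22), and Gys1, the synthase that builds the chain, at 29.4 and 31.0 (0.08 ± 0.19) per the authors' deposited table, neither called. Ugp2, which makes the UDP-glucose used by the synthase, stood at 53.8 and 44.7 FPKM (-0.27 ± 0.18) per the authors' deposited table and was not called. Phosphoglucomutase genes carry crossed symbols: the row named Pgm1 (chr5:64092950-64128158) is called Pgm2 in RefSeq and the row named Pgm2 (chr4:99929451-99987294) is called Pgm1. The first stood at 22.1 and 19.0 FPKM (-0.22 ± 0.20) and the second at 11.3 and 11.6 (0.04 ± 0.21) per the authors' deposited table, neither called.

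**Figure D2:**
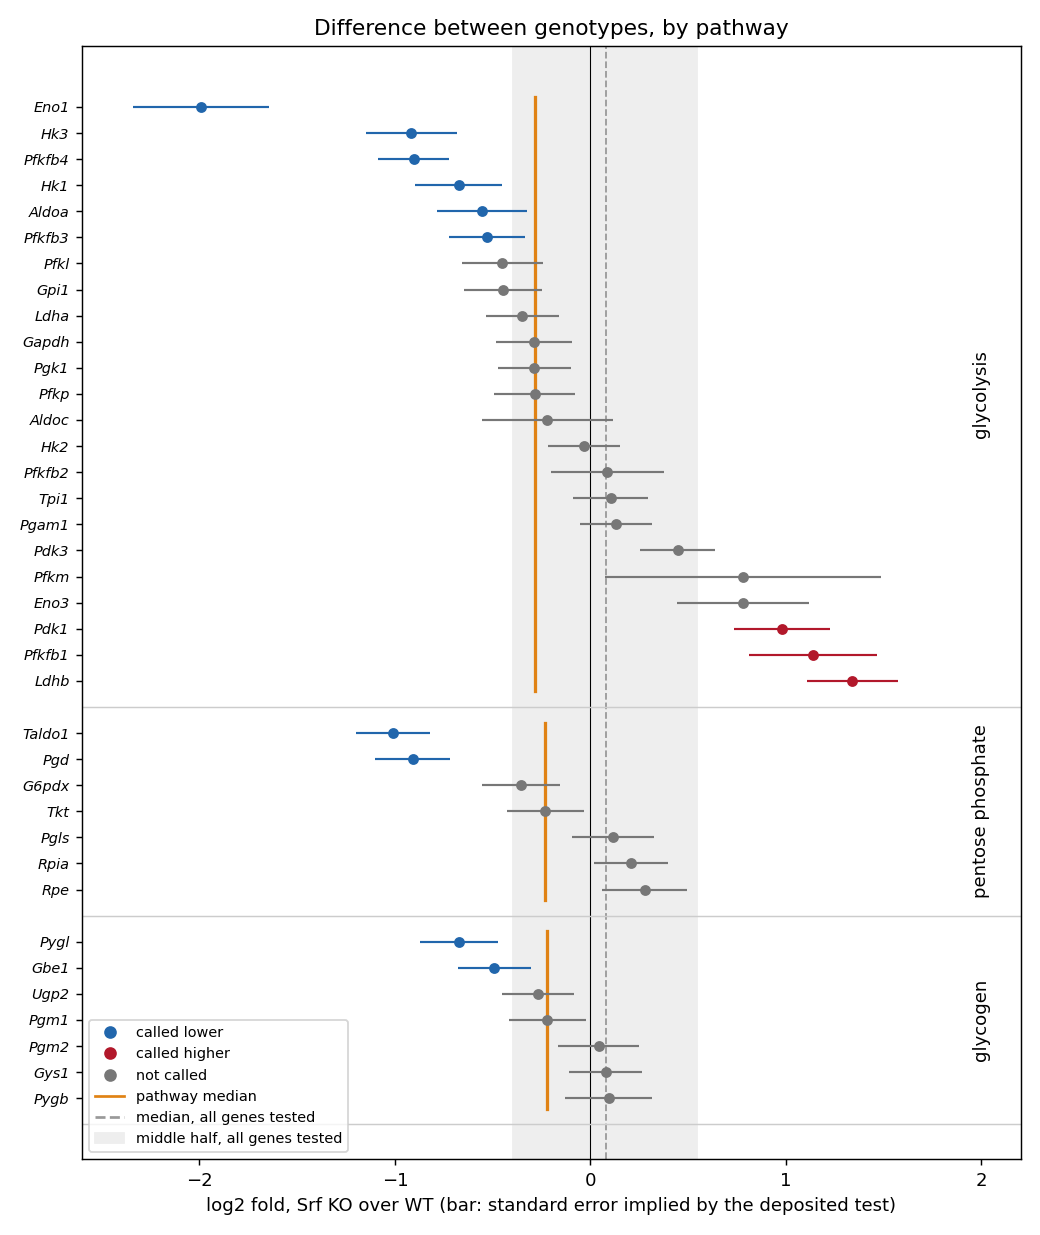
Log2 fold (Srf KO over WT) of each member with the standard error implied by the deposited test, ordered within each route; orange lines are route medians (-0.29, -0.23 and -0.22), and the dashed line and grey band are the median (0.08) and interquartile range (-0.40 to 0.54) of all genes tested. All called members lie outside the grey band, and most members that were not called lie inside it. For the falls this had to be so, because no tested gene with an absolute log2 fold under 0.43 was called.

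Members at high and at low levels were also counted separately. Of the 13 members with a mean of 100 FPKM or more over the 2 genotypes, 6 fell (Hk3, Aldoa, Eno1, Pgd, Taldo1 and Pygl) and 0 rose, with a median log2 fold of -0.45. Among all 722 tested genes at such levels 30.5% fell and 19.7% rose, with a median of -0.11, so highly expressed genes in general also leaned lower. Of the 24 members under 100 FPKM, 4 fell and 3 rose, with a median of 0.08, against 17.1% and 17.6% of 11912 genes and a median of 0.09. Whether the members differ from other genes of their level was not tested.

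Several members are transcribed from more than 1 start, and the authors' table of start groups separates them; distances between starts are taken from the GENCODE transcripts matched to each isoform. Of 13042 start groups tested there, 31.2% were called, 16.1% lower and 15.1% higher. The members had 45 tested start groups, of which 8 fell and 4 rose. Of their 47 tested isoforms 8 fell and 4 rose as well, where 27.2% of all tested isoforms were called, and of their 45 tested coding sequences 8 fell and 3 rose, where 30.2% were called.

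At Hk3 one start group was called and the other was not; the difference between them was not tested. By the authors' deposited start table the upstream group, printed above, fell from 141 to 28.9 FPKM (-2.29 ± 0.35, adjusted p = 4.91e-09). That group holds 2 tested isoforms in the authors' deposited isoform table: the main one fell from 137 to 14.1 FPKM (-3.27 ± 0.64, adjusted p = 7.36e-06), and a minor one had the opposite sign and was not called (4.73 and 14.8 FPKM, 1.65 ± 1.15, adjusted p = 0.306). The other start, 481 bases downstream, stood at 121 and 110 FPKM (-0.14 ± 0.25, adjusted p = 0.733 in the authors' deposited table) and was not called, and its share of Hk3 FPKM was 46.1% in WT and 79.2% in Srf KO. These starts are close and their transcripts overlap, so the division of reads between them is an estimate.

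At Hk1 the start 39366 bases downstream fell from 31.6 to 18.7 FPKM per the authors' deposited start table (-0.76 ± 0.20, adjusted p = 0.00128). The upstream start stood at 3.72 and 3.42 (-0.12 ± 0.78, adjusted p = 0.940 in the authors' deposited table), too imprecise to compare with it. The downstream start made up 89.5% of Hk1 FPKM in WT and 84.5% in Srf KO, so it dominated in both.

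Aldoa had start groups with opposite signs. The upstream group rose from 221 to 382 FPKM (0.79 ± 0.27, adjusted p = 0.0165) in the authors' deposited start table, against the direction of the gene. The main WT group, 1193 bases downstream, stood at 417 FPKM in WT and 61.5 in Srf KO with a large error (-2.76 ± 1.48, adjusted p = 0.145 in the authors' deposited table) and was not called, and a minor group stood at 21.2 and 5.54 (adjusted p = 0.955). The upstream share was 33.5% in WT and 85.1% in Srf KO. These starts too are close and their transcripts overlap, so the shares are estimates and a change of start was not tested. The gene row, which sums the groups, was called lower. At Pfkfb3 the gene was called though neither group was: the upstream group stood at 29.0 and 21.8 FPKM (-0.41 ± 0.20, adjusted p = 0.103) and the downstream one at 4.43 and 1.42 (-1.64 ± 0.69, adjusted p = 0.0536) in the authors' deposited start table.

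**Figure D3:**
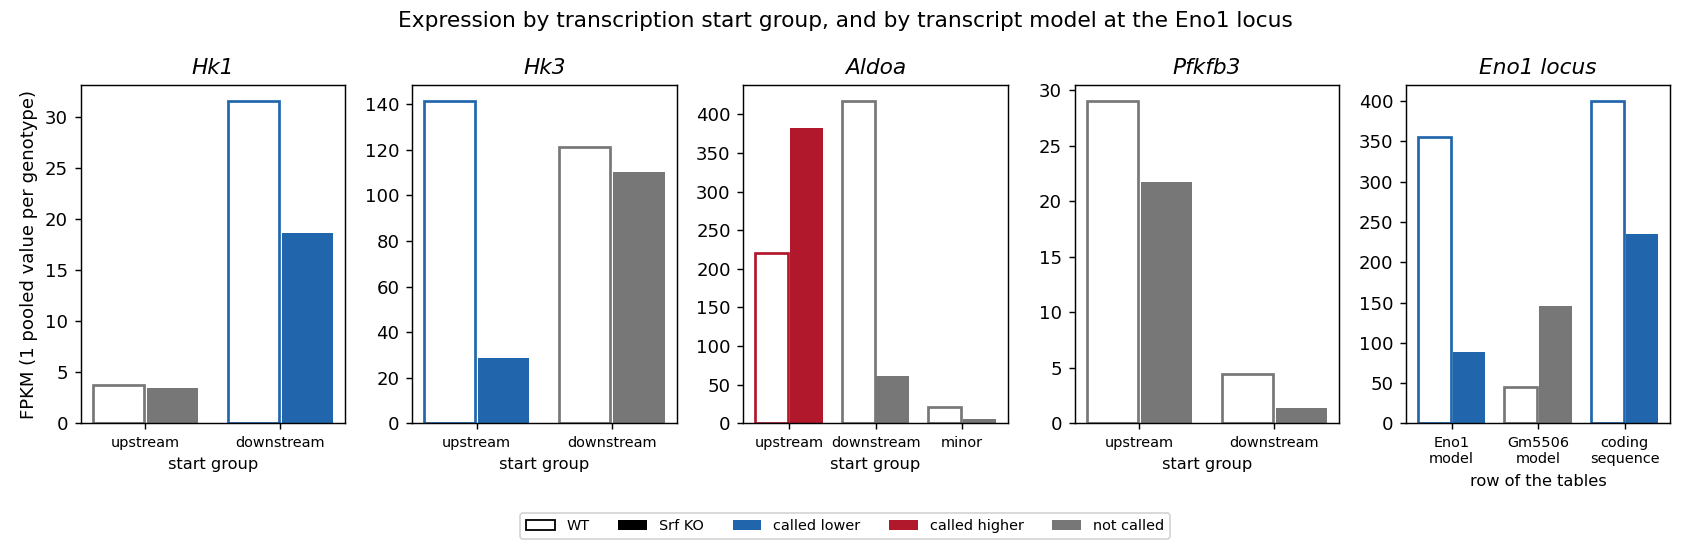
Pooled FPKM by transcription start group for Hk1, Hk3, Aldoa and Pfkfb3, and by transcript model for the Eno1 locus (open bars WT, filled bars Srf KO; colour gives the call). The upstream Hk3 bar goes from 141 to 28.9 FPKM beside a downstream pair at 121 and 110, the Aldoa pairs go in opposite directions, and the 2 Eno1-locus models do so too while their sum, the coding-sequence row, goes from 400 to 235.

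Of the 37 members 4 lie on the X chromosome (Pgk1, G6pdx, Pfkfb1 and Pdk3), of which Pfkfb1 rose and 0 fell. Among all 400 tested X-linked genes 17.8% rose and 15.2% fell, with a median log2 fold of 0.19. With Xist at 0.0154 FPKM in WT and 4.92 in Srf KO, sex makeup and genotype cannot be told apart for these genes.

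The enzymes just described work with carriers of sugar and lactate. Of 9 tested genes of this list, 8 carriers and the carriers' chaperone Bsg, 4 fell and 2 rose, where 17.8% of all tested genes fell and 17.7% rose; these shares are also those to set beside each list that follows. Slc2a3, the high-affinity glucose transporter gene with the highest level of its family here, fell from 277 to 147 FPKM (-0.91 ± 0.19) per the authors' deposited table. The glucose transporter gene Slc2a1 fell from 19.5 to 6.24 FPKM (-1.64 ± 0.21), and Slc2a6, a family member found in lysosomes of macrophages, from 60.4 to 15.6 (-1.95 ± 0.19), both per the authors' deposited table. Together these 3 went from 357 to 169 FPKM, 2.11-fold lower, summed over the authors' deposited table. The lactate exporter gene Slc16a3 fell from 121 to 57.9 FPKM (-1.07 ± 0.21) per the authors' deposited table, while Slc16a1, another lactate carrier, rose from 1.74 to 3.74 (1.10) and the urate carrier gene Slc2a9 from 1.99 to 3.52 (0.83). Bsg stood at 61.9 and 67.1 FPKM in the authors' deposited table (log2 fold 0.11, with a large error) at a locus shared with many other genes, and was not called.

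Other genes of glycolysis, 14 tested, had 2 falls and 4 rises with a median log2 fold of 0.19, above that of the members. Pkm2, the row for muscle pyruvate kinase, which makes pyruvate and ATP in the last step, fell from 1054 to 635 FPKM (-0.73 ± 0.20, adjusted p = 0.00202) per the authors' deposited table. Aldoart1, an aldolase retrogene akin to Aldoa, fell from 17.8 to 8.56 FPKM (-1.06 ± 0.21) per the authors' deposited table. The named rises were at low levels in the authors' deposited table: Minpp1 (2.72 to 5.49 FPKM), the gluconeogenic gene Fbp1 (1.19 to 2.15) and Gpd1 (0.405 to 1.02). Pklr, the liver pyruvate kinase, rose too but stayed under 1 FPKM in both genotypes of the authors' deposited table.

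For NADPH and pentose metabolism 7 other genes were tested, with 1 fall and 2 rises. G6pd2, an intronless copy of G6pdx, fell from 16.4 to 5.80 FPKM (-1.50 ± 0.23) per the authors' deposited table, and its reads may be shared with G6pdx. Per the authors' deposited table Prps1 and Prps2, X-linked genes for the synthase that activates ribose for nucleotides, rose from 5.03 to 9.35 and from 3.05 to 6.38 FPKM. Proliferation markers summed to 400 FPKM in WT and 726 in Srf KO, and their part in these rises was not tested.

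Of 21 other glycogen genes 4 fell and 1 rose, with a median of 0.08. Ppp1r3b, which brings protein phosphatase to glycogen and promotes synthesis, fell from 45.6 to 20.2 FPKM (-1.18 ± 0.18) per the authors' deposited table. The targeting subunit gene Ppp1r3d fell from 26.8 to 17.8 FPKM (-0.59) and the kinase gene Gsk3b from 14.4 to 9.81 (-0.55), both per the authors' deposited table. Pgm2l1 rose from 1.11 to 1.64 FPKM (0.56) per the authors' deposited table.

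Regulators of sugar metabolism had 8 falls and 1 rise among 16 tested, against 17.8% and 17.7% of all tested genes, with a median log2 fold of -0.57. Hif1a, the oxygen-regulated factor whose core site is ACGTG, fell from 24.4 to 11.2 FPKM (-1.12 ± 0.19, adjusted p = 7.48e-08) per the authors' deposited table. Txnip, which limits glucose uptake, fell from 296 to 133 (-1.16 ± 0.23), and the prolyl hydroxylase genes Egln2 and Egln3, which mark the hypoxia factors for destruction, from 12.4 to 7.52 and from 9.06 to 5.50, all per the authors' deposited table. Myc, a growth factor-responsive activator of glycolytic genes, rose from 2.85 to 6.31 FPKM (1.15) per the authors' deposited table. At the entry of pyruvate into the mitochondrion 1 of 12 tested genes fell, Pdpr (3.16 to 1.65 FPKM), and 1 rose, the dehydrogenase subunit gene Pdhb (28.7 to 39.7), in the authors' deposited table, with a median of 0.33.

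**Figure D4:**
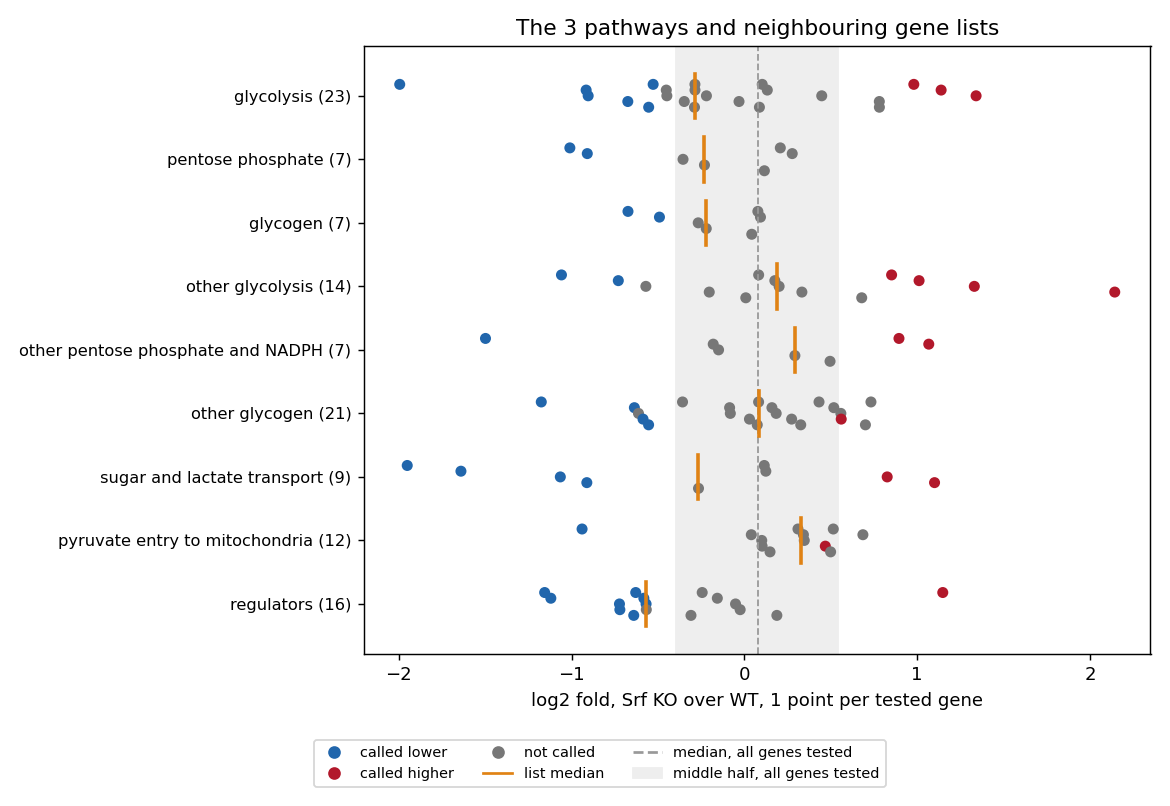
Log2 fold (Srf KO over WT) of every tested gene of the 3 routes and of 6 neighbouring lists, 1 point per gene, with the number tested in brackets; orange lines are list medians, and the dashed line and grey band are the median and interquartile range of all genes tested. The medians run from -0.57 (regulators) to 0.33 (pyruvate entry), with the 3 routes at -0.29, -0.23 and -0.22.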

How the data were processed

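RNA of 2 WT and 2 Srf KO samples was sequenced with a TruSeq RNA v2 library that does not keep the strand, per the labels' protocols, so overlapping genes on opposite strands share reads. Per the submitters' processing notes the tools were Cufflinks 2.0.0, TopHat2 2.0.0 and CASAVA 1.8.1 on mm10; settings are not given in the sources used here. The gene, isoform, start-group and coding-sequence tables hold, per the file headers, 1 FPKM value per genotype as the authors deposited it, with a test statistic, its p-value and q-value, and a log2 fold. Depth and replicate spread could not be had from pooled values. The p-value the authors deposited was checked against a two-sided normal tail of that statistic and matched it, and the q-value was adjusted by Benjamini-Hochberg over tested rows.

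Folds were computed here as log2(KO FPKM / WT FPKM), with implied standard error |log2 fold| / |statistic| (median 0.24). Calls need q-values of 0.05 or less. Lists are described by counts and medians beside all tested genes, and no set test was run. Starts, 0-based in the tables, are printed 1-based. Transcript lengths and start positions come from GENCODE M21 (GRCm38) and promoter windows from RefSeq GRCm38.p6. Scripts ran in Python 3.11.15 with pandas 2.3.3, numpy 2.4.6, matplotlib 3.10.9 and scipy 1.17.1. Only the length adjustment was tried on simulated data, and the authors' calls were not.

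The members and lists were chosen with earlier results of these data known. All members are named, and of each other list up to 4 called genes per direction by absolute log2 fold at 1 FPKM or more in a genotype, apart from 1 gene not reported here; Bsg, Pklr, Gm5506 and Ddx3y fall outside that rule and were chosen after their values were seen. Alternatives were a pseudocount of 1, filters at 1 and 5 FPKM, a q-value of at most 0.01, a 2-fold minimum, centring on the median gene, a length adjustment, the isoform with the highest summed FPKM, and leaving out shared loci or X-linked genes.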

Additional observations from a re-analysis of the deposited data

How the results depend on the processing

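Values are pooled per genotype, so depth, replicate spread and an analysis without each sample could not be had. No paired analysis was possible because the tables hold no per-sample values. A 2-fold minimum left 1720 of 4486 called genes, 3 of 9 called members in glycolysis, 1 of 2 in pentose phosphate and 0 of 2 in glycogen; a q-value of at most 0.01 left 1 in glycogen. Of the 13 called members, 4 (Eno1, Ldhb, Pfkfb1 and Taldo1) kept their call and direction under every alternative that gave a value. The pseudocount could not change a call, because it left q-values and signs as they were. It took the log2 fold of Pfkfb1 from 1.14 to 0.60, and Pfkfb1 has no value at the 5 FPKM filter. Eno1 passes the 2-fold minimum by its gene row (3.98-fold) and not by its coding-sequence row (1.70-fold). Of the called members 9 missed the 2-fold minimum, and Aldoa, Pfkfb3 and Gbe1 missed the stricter q-value. The isoform with the highest FPKM summed over both genotypes reversed Aldoa (0.79) and Pfkfb2 (-0.18) and lost Hk3 (-0.14, q-value 0.767) and Pfkfb3 (q-value 0.114), leaving 3 lower and 4 higher calls in glycolysis; the isoforms of Aldoa and Hk3 with the highest WT level had folds of -2.76 and -3.27. The length adjustment reversed Hk2 (0.14), Tpi1 (-0.15), Pgam1 (-0.062), Pgls (-0.27) and Pgm2 (-0.069), lost Pfkfb3 (-0.40, q-value 0.0971) and called Ldha, Gapdh, Pgk1 and Gpi1 lower. Centring shifted all folds by 0.08, reversed Pgm2 (-0.036) and Gys1 (-0.00031) and called Gpi1 and Pfkl lower (q-values 0.0275 and 0.0332). The filter at 5 FPKM called Eno3 and Pdk3 higher (q-values 0.0493 and 0.0477). Without Eno1, an alternative chosen after seeing the data, glycolysis kept 5 lower calls. Route medians stayed negative under every alternative run but moved: pentose phosphate from -0.23 to -0.06 without X-linked members and -0.40 without shared loci, and glycogen from -0.22 to -0.09 without shared loci. Glycolysis had 3 lower and 3 higher calls without shared loci, and the cause of each change was not tested.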
